A study of Bos taurus with 50 samples.

Results

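The endometrial mRNA abundance of 5 genes of the apical brush border and of endocytosis was described across 50 RNA-seq libraries of dairy cows. The genes were LRP2 (ENSBTAG00000004555), PDZK1 (ENSBTAG00000005810), EZR (ENSBTAG00000010347), PLS1 (ENSBTAG00000023429) and CDCP1 (ENSBTAG00000012482), chosen by their known place at the apical surface of epithelial cells from genes that the study had listed as differing between its groups. They were 5 of the 18830 genes counted, and all 5 were among the 16120 genes that passed the filter on low counts.

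The libraries were made from whole endometrial biopsies of first-lactation Holstein x Jersey cows at week 5 and week 9 after calving, and cows were classed by ovarian status at week 5. CycW5 cows were cycling with a corpus luteum and progesterone (P4) at week 5, NoCycW5 cows had not resumed cycling, and CycNoP4 cows had cycled but had low P4 when sampled at week 5. Before week 9 all cows received the same estrous synchronization with GnRH, a P4 insert and prostaglandin, which was meant to place the week 9 biopsies in the luteal phase. There were 10 CycW5, 12 NoCycW5 and 4 CycNoP4 libraries at week 5, and 10, 11 and 3 at week 9. The labels did not link libraries to cows, so libraries of the same cow at both weeks were treated as separate samples. Library totals ranged from 21592867 to 32813237 reads assigned to genes, with a median of 28126022.5.

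Microvilli are finger-like extensions of the apical membrane that are packed with bundled actin, and the uterine luminal and glandular epithelium carries them. At their base the cell takes up luminal proteins into clathrin-coated pits. LRP2 (megalin) is a large endocytic receptor that binds vitamin carriers, lipoproteins and hormones, and PDZK1 is a scaffold with PDZ domains that holds transporters beneath the apical membrane. EZR (ezrin) ties the membrane to the actin core, PLS1 (plastin 1, or fimbrin) bundles the actin filaments, and CDCP1 is a transmembrane glycoprotein that Src family kinases phosphorylate and proteases cleave. In whole biopsies more epithelial cells and more mRNA per epithelial cell cannot be told apart, and the place of a transcript within the cell was not measured.

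Values are counts scaled to library size (CPM) after TMM normalization, which scales each library by its overall composition. CPM is not corrected for transcript length, so levels are compared between groups and not between genes, and a gene said to take the most reads of a list is not thereby the most abundant. A gene was called at a Benjamini-Hochberg adjusted P of 0.05 or less in the quasi-likelihood test of edgeR. The 95% intervals are a normal approximation around an SE taken from that test. They are slightly narrower than the test, so an interval can leave out 0 where the unadjusted P is above 0.05. The study had listed the members from the CycW5 and NoCycW5 contrast at week 5, from the NoCycW5 contrast of the 2 weeks, or from both. These contrasts, and the difference of the changes over the weeks formed from them, are therefore described without a test. The contrasts that hold CycNoP4 cows, and the other CycW5 contrasts, were tested. All of these but the contrast of the 2 weeks in CycNoP4 share CycW5 or NoCycW5 libraries with the contrasts that chose the members. That choice can favour low values in NoCycW5 and high values in CycW5 at week 5, and the P-values do not allow for it.

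Before the results, 5 libraries are set out that stood apart from the rest of their groups. On the first principal component of all genes but the members, which held 31.6% of the variance, they lay above the lowest of the NoCycW5 week 5 libraries. This rule was applied to CycW5 at week 5 and to the week 9 groups only. All 4 CycNoP4 libraries of week 5 also lay above that limit, at 36.1, 47.1, 52.7 and 47.5 against 32.8. The 5 libraries were library 57 of CycW5 at week 5, libraries 87 and 89 of CycW5 at week 9 and libraries 76 and 91 of NoCycW5 at week 9. Low LRP2 and PDZK1 went with them in 4 cases (libraries 57, 87, 76 and 91), while library 89 had 414 CPM of LRP2 and 63.2 CPM of PDZK1. OXTR, the oxytocin receptor, which P4 is known to restrain in the endometrium, was at 80.3 CPM or more in all 12 NoCycW5 libraries of week 5. It reached that level in the same 4 libraries, at 151, 178, 93.6 and 162 CPM, and at week 9 also in CycW5 library 72 (111 CPM) and NoCycW5 library 80 (81.5 CPM), so that in this gene these 6 libraries were within the NoCycW5 range of week 5. LRP2 and PDZK1 were not low in library 72 (712 and 771 CPM) or library 80 (661 and 683 CPM). Library 89 had 7.44 CPM of OXTR. Without the 5 libraries the genes called between CycW5 and NoCycW5 at week 5 were 5812 in place of 4126. At week 5 CycNoP4 had the same count of 4 members called against NoCycW5, while genes called rose from 2650 to 3826, and of 2 against CycW5, while genes called rose from 2887 to 4106. Over the weeks in CycNoP4 the members called were 3 in place of 2, CDCP1 being the call gained (log2 0.91, adjusted P = 0.0416, edgeR), while genes called rose from 3158 to 4382.

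**Figure D1:**
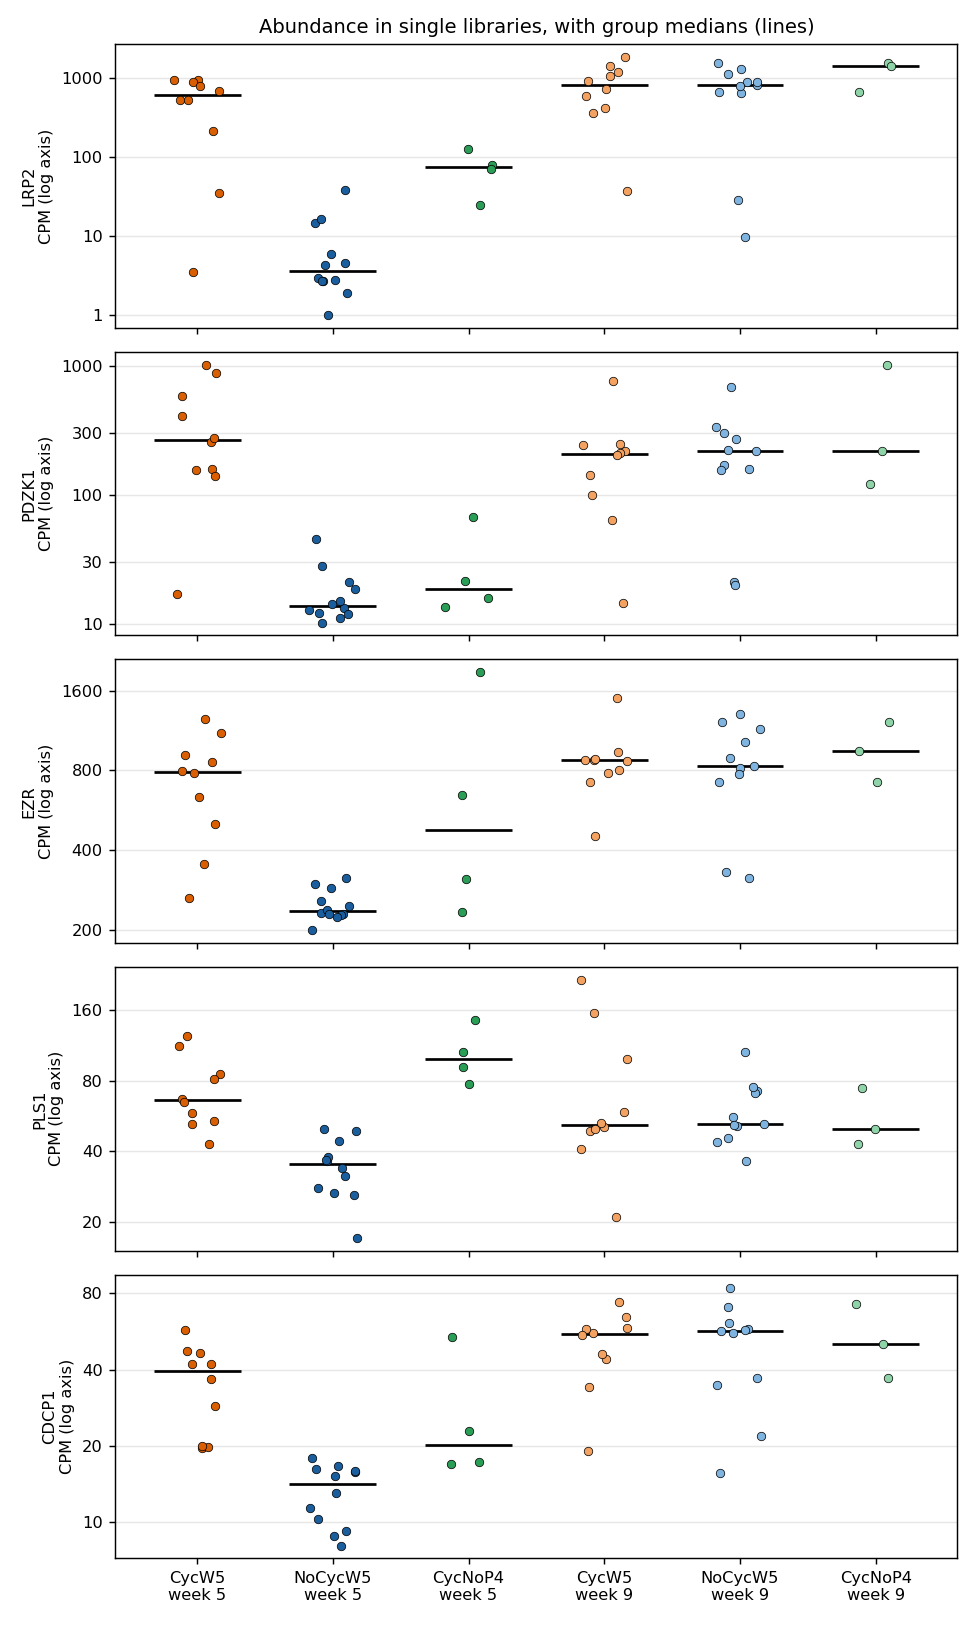
CPM on a log axis of LRP2, PDZK1, EZR, PLS1 and CDCP1 (rows) in each of the 50 libraries (points), by status and week, with the median of each group as a line. LRP2 and PDZK1 spanned the widest range, from a median LRP2 of 3.63 CPM in NoCycW5 at week 5 to 1398 CPM in CycNoP4 at week 9, and PLS1 was the one gene whose highest median was in CycNoP4 at week 5.

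LRP2 was the member with the widest range over groups. In NoCycW5 at week 5 it ranged from 1.01 to 38.5 CPM with a median of 3.63 CPM. In CycW5 at week 5 it ranged from 3.52 to 938 CPM with a median of 597 CPM. Of the 10 CycW5 libraries, 8 lay above every NoCycW5 library, and library 57 (3.52 CPM) and library 52 (34.5 CPM) lay within the NoCycW5 range. LRP2 abundance was 67.1-fold higher in CycW5 than in NoCycW5 (log2 6.07, SE 0.75). It ranked 20 of 16120 genes by that fold change. In this contrast, 25.6% of all genes were called.

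At week 9 LRP2 ranged from 9.58 to 1522 CPM in NoCycW5 (median 794 CPM) and from 37 to 1823 CPM in CycW5 (median 803 CPM). The 3 CycNoP4 libraries had 1539, 1398 and 658 CPM. The week 9 groups overlapped, and each had a median above that of any week 5 group. Low values remained in NoCycW5 libraries 91 (9.58 CPM) and 76 (28.6 CPM) and in CycW5 library 87 (37 CPM). From week 5 to week 9 LRP2 in NoCycW5 was higher by a log2 of 6.57 (SE 0.76), in a contrast where 34.4% of genes were called, and it ranked 8 of 16120. By group mean LRP2 was lowest in NoCycW5 week 5 (8.19 ± 10.7 CPM, SD, n = 12), then CycNoP4 week 5 (74.8 ± 41.7 CPM, SD, n = 4) and CycW5 week 5 (551 ± 358 CPM, SD, n = 10). At week 9 the means of NoCycW5 (778 ± 460 CPM, SD, n = 11), CycW5 (848 ± 538 CPM, SD, n = 10) and CycNoP4 (1199 ± 473 CPM, SD, n = 3) followed. From CycW5 week 5 upward each mean was within 1 SD of its neighbour.

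PDZK1 showed the next largest differences. In NoCycW5 at week 5 it ranged from 10.2 to 45.2 CPM with a median of 13.7 CPM. In CycW5 at week 5 it ranged from 16.9 to 1019 CPM with a median of 267 CPM. The groups overlapped through library 57 alone, at 16.9 CPM, and the other 9 CycW5 libraries lay above all NoCycW5 libraries. The difference was 21.9-fold (log2 4.46, SE 0.57).

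At week 9 PDZK1 had medians of 218 CPM in NoCycW5 (19.96 to 683 CPM), 206 CPM in CycW5 (14.5 to 771 CPM) and 219 CPM in CycNoP4 (122 to 1027 CPM). The ranges of these 3 groups overlapped widely. In NoCycW5 PDZK1 was higher at week 9 than at week 5 by a log2 of 3.71 (SE 0.55). In CycW5 the highest PDZK1 value was at week 5, and its mean was 389 ± 335 CPM at week 5 against 221 ± 209 CPM at week 9 (SD, n = 10 each). The order of group means ran from NoCycW5 week 5 (17.7 ± 10.02 CPM, SD, n = 12) and CycNoP4 week 5 (29.4 ± 25.2 CPM, SD, n = 4), which did not differ beyond their spread, to CycNoP4 week 9 (456 ± 497 CPM, SD, n = 3). Between them came CycW5 week 9, NoCycW5 week 9 (232 ± 180 CPM, SD, n = 11) and CycW5 week 5, each within 1 SD of the next.

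EZR moved over a narrower range. In NoCycW5 at week 5 it ranged from 199 to 313 CPM with a median of 234 CPM, a coefficient of variation of 13.8%. In CycW5 at week 5 it ranged from 262 to 1247 CPM with a median of 790 CPM. Library 57 was the one CycW5 library within the NoCycW5 range. The difference was 3.01-fold (log2 1.59, SE 0.26). At week 9 the means were 852 ± 322 CPM in NoCycW5 (SD, n = 11), 870 ± 263 CPM in CycW5 (SD, n = 10) and 961 ± 247 CPM in CycNoP4 (SD, n = 3), which lay within 1 SD of each other. In NoCycW5 EZR was higher at week 9 by a log2 of 1.78 (SE 0.25). Its lowest group mean was 248 ± 34.2 CPM in NoCycW5 week 5 (SD, n = 12), and CycW5 (747 ± 314 CPM, SD, n = 10) and CycNoP4 (767 ± 762 CPM, SD, n = 4) at week 5 were not separated from the week 9 groups by their spread.

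PLS1 had the smallest difference between CycW5 and NoCycW5 at week 5. It ranged from 17.2 to 49.7 CPM in NoCycW5 (median 35.3 CPM) and from 43.1 to 123 CPM in CycW5 (median 66.1 CPM). Again library 57 (43.1 CPM) was the one CycW5 library below the highest NoCycW5 value. The difference was 2.13-fold (log2 1.09, SE 0.25). At week 9 PLS1 had means of 60.1 ± 19.6 CPM in NoCycW5 (SD, n = 11), 79.1 ± 60.5 CPM in CycW5 (SD, n = 10) and 55.6 ± 16.5 CPM in CycNoP4 (SD, n = 3). The order of its group means differed from that of the other members, with NoCycW5 week 5 lowest (34.8 ± 9.68 CPM, SD, n = 12) and CycNoP4 week 5 highest (105 ± 28.5 CPM, SD, n = 4).

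CDCP1 was the member whose CycW5 and NoCycW5 libraries did not overlap at week 5. All 12 NoCycW5 libraries lay between 8.10 and 18 CPM (median 14.2 CPM), and all 10 CycW5 libraries between 19.7 and 57.2 CPM (median 39.3 CPM). Over all genes, 0.242% had all CycW5 libraries above all NoCycW5 libraries, and nothing is read from that share because the contrast was one that chose members. The difference was 2.72-fold (log2 1.44, SE 0.24). At week 9 CDCP1 means were 50.2 ± 20.7 CPM in NoCycW5 (SD, n = 11), 50.8 ± 15.6 CPM in CycW5 (SD, n = 10) and 53.2 ± 17.8 CPM in CycNoP4 (SD, n = 3). Within NoCycW5, CDCP1 was higher at week 9 by a log2 of 1.92 (SE 0.24), and the weeks overlapped through library 91 (15.6 CPM) alone. Its group means ran from NoCycW5 week 5 (13.2 ± 3.52 CPM, SD, n = 12) through CycNoP4 (27.7 ± 17.6 CPM, SD, n = 4) and CycW5 (36 ± 13.4 CPM, SD, n = 10) at week 5 to the 3 week 9 groups, which lay within 1 SD of each other.

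The change from week 5 to week 9 in NoCycW5 minus that in CycW5 was log2 5.94 (SE 0.95) for LRP2 and 4.53 (SE 0.76) for PDZK1. It was 1.56 (SE 0.36) for EZR, 1.43 (SE 0.34) for CDCP1 and 0.70 (SE 0.36) for PLS1. For this difference of changes, 7.66% of all genes were called. The 95% interval of PLS1, from -0.01 to 1.40, was the only one of the 5 to reach 0.

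**Figure D2:**
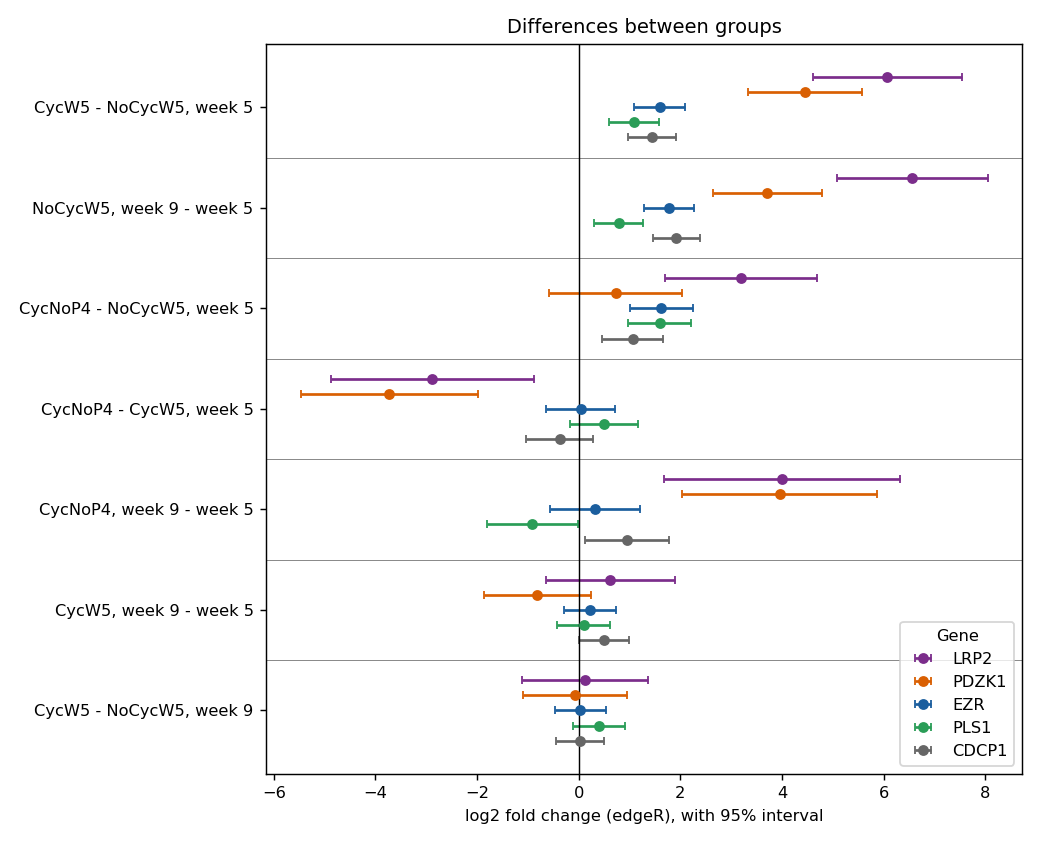
Log2 fold change (x axis) of the 5 genes in 7 comparisons of groups (y axis), from the edgeR fit, with 95% intervals. The intervals are a normal approximation and slightly narrower than the test. The first 2 rows chose the members and are a description, and in the CycNoP4 minus CycW5 row LRP2 (-2.88) and PDZK1 (-3.73) lay below 0 while EZR, PLS1 and CDCP1 had intervals that included 0.

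The CycNoP4 cows had cycled but were sampled under low P4, and at week 5 the members did not share a level in them. PLS1 and LRP2 were higher than in NoCycW5, whereas PDZK1 was at its NoCycW5 level in 3 of the 4 libraries. The 4 libraries, numbered 51, 56, 58 and 64, had LRP2 at 126, 79.0, 69.7 and 24.4 CPM. PDZK1 was at 15.8, 21.5, 66.7 and 13.4 CPM in the same order. Library 58 was the only one with PDZK1 above the highest NoCycW5 value of 45.2 CPM, and 3 of the 4 had LRP2 above the highest NoCycW5 value of 38.5 CPM.

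In the same 4 libraries EZR was at 1879, 644, 311 and 234 CPM. PLS1 was at 144, 105, 91.7 and 77.7 CPM, and CDCP1 was at 53.8, 22.9, 16.96 and 17.3 CPM. All 4 PLS1 values lay above all 12 NoCycW5 values, a separation in this direction that 0.459% of all genes had. The choice of the members on these NoCycW5 libraries can favour such a separation, so nothing is read from that share. Library 51 was the highest of the 4 for LRP2, EZR, PLS1 and CDCP1, and for EZR and CDCP1 the 2 lowest libraries lay within the NoCycW5 range.

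Against NoCycW5 at week 5, LRP2, EZR, PLS1 and CDCP1 rose in CycNoP4, 4 of the 5 members where 9.92% of all genes were called higher. The same NoCycW5 libraries served to choose the members, which can favour higher calls here, so nothing is read from that count. The log2 difference was 1.59 for PLS1 (SE 0.32, adjusted P = 0.00141, edgeR), 3.19 for LRP2 (SE 0.77, adjusted P = 0.00523), 1.63 for EZR (SE 0.32, adjusted P = 0.00122) and 1.07 for CDCP1 (SE 0.31, adjusted P = 0.0158). For PDZK1 it was 0.73 (SE 0.67, adjusted P = 0.461), with an interval from -0.59 to 2.04. The PDZK1 value did not keep its direction over all libraries left out in turn. Of the 4 calls, 3 rested on library 51. Without it PLS1 was the 1 member called, with the highest adjusted P over all libraries left out in turn being 0.0355. LRP2 was then at 2.81 (adjusted P = 0.0700), EZR at 0.68 (adjusted P = 0.211) and CDCP1 at 0.52 (adjusted P = 0.350), and the genes called fell from 2650 to 153. They were 853 without library 56, 1720 without library 58 and 4775 without library 64.

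Against CycW5 at week 5, PDZK1 and LRP2 were lower in CycNoP4, 2 of the 5 members where 8.29% of all genes were called lower. The same CycW5 libraries served to choose members, which can favour lower calls here, so nothing is read from that count. PDZK1 fell by 3.73 on the log2 scale (SE 0.89, adjusted P = 0.00370, edgeR) and stayed called whichever of the 14 libraries was left out, with a highest adjusted P of 0.0288. Of the 10 CycW5 libraries, 9 lay above all 4 CycNoP4 libraries in PDZK1, the exception being library 57. Every CycNoP4 library lay below every CycW5 library in 1.53% of all genes, a full separation that PDZK1 did not have. The share of genes with the partial separation of PDZK1 is not given here. LRP2 fell by 2.88 (SE 1.02, adjusted P = 0.0428), and 8 of the 10 CycW5 libraries lay above all 4 CycNoP4 libraries. The LRP2 call was lost in 9 of the 14 fits that left out 1 library (any CycNoP4 library, or CycW5 library 12, 13, 66, 67 or 70), with adjusted P up to 0.105. Genes called in this contrast numbered 2887, and between 1111 (without library 51) and 4342 (without library 64) with 1 CycNoP4 library left out.

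EZR, PLS1 and CDCP1 were not called between CycNoP4 and CycW5. The log2 difference was 0.04 for EZR (interval -0.65 to 0.72, adjusted P = 0.953), 0.50 for PLS1 (interval -0.17 to 1.16, adjusted P = 0.310) and -0.38 for CDCP1 (interval -1.04 to 0.28, adjusted P = 0.449). For EZR the value rested on library 51 and was -0.91 without it. Each interval spans differences in either direction, so similar levels were not shown.

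**Figure D3:**
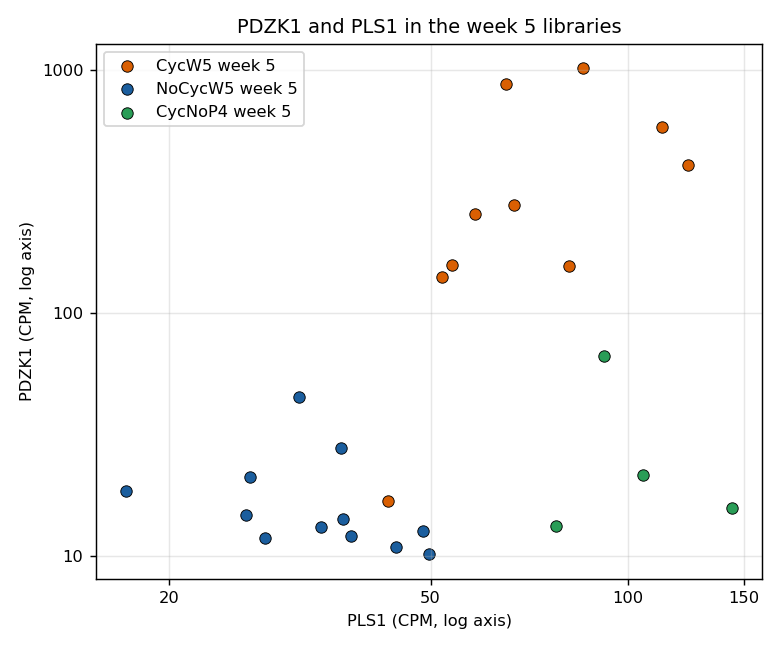
PDZK1 (y axis) against PLS1 (x axis), both in CPM on log axes, in the 26 libraries of week 5, coloured by status. The 4 CycNoP4 libraries had PLS1 of 77.7 to 144 CPM, above all 12 NoCycW5 libraries, with PDZK1 of 13.4 to 66.7 CPM, below 9 of the 10 CycW5 libraries.

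The ratio between members, as the difference of log2 CPM within a library, is given as a description with no test, since it was chosen after the values were seen. PDZK1 relative to PLS1 had means of -2.11 ± 1.17 in CycNoP4 (SD, n = 4), 1.82 ± 1.43 in CycW5 (SD, n = 10) and -1.06 ± 0.88 in NoCycW5 (SD, n = 12) at week 5. LRP2 relative to PDZK1 had means of 1.45 ± 1.27 in CycNoP4 (SD, n = 4), 0.17 ± 1.68 in CycW5 (SD, n = 10) and -1.74 ± 1.42 in NoCycW5 (SD, n = 12). For EZR relative to CDCP1 the 3 means lay between 4.26 and 4.47.

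From the low P4 of week 5 to the synchronized cycle of week 9, LRP2 in CycNoP4 rose by 4.0 log2 units (SE 1.19, adjusted P = 0.0171, edgeR) and PDZK1 by 3.96 (SE 0.98, adjusted P = 0.00692), 2 of the 5 members where 9.74% of genes were called higher. The PDZK1 call was lost when library 94 (1027 CPM) was left out, at a log2 of 2.50 (adjusted P = 0.0882). The LRP2 call was lost without library 79 (adjusted P = 0.0512), although its log2 difference stayed between 3.71 and 4.38 whichever library was left out. PLS1 was at 49.7, 42.9 and 74.2 CPM at week 9, below all 4 week 5 values, but its log2 difference of -0.91 (SE 0.46, adjusted P = 0.147) was not called. Between 3 and 4 libraries, 26.3% of all genes had groups without overlap, so the separation seen for LRP2, PDZK1 and PLS1 was common. EZR (0.32, adjusted P = 0.631) and CDCP1 (0.94, adjusted P = 0.101) were not called, but both were called without library 51 (log2 1.28 for EZR, adjusted P = 0.0446, and 1.48 for CDCP1, adjusted P = 0.0290).

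In CycW5 cows none of the 5 members was called between week 5 and week 9, where 0.124% of all genes (20 genes) were called. The log2 difference was 0.62 for LRP2 (interval -0.65 to 1.90), -0.81 for PDZK1 (interval -1.87 to 0.24), 0.22 for EZR, 0.09 for PLS1 and 0.50 for CDCP1 (interval 0.01 to 0.98, adjusted P = 0.371). The approximate interval of CDCP1 left out 0 although its unadjusted P was 0.0517 (edgeR). The change in CycNoP4 minus that in CycW5 was 4.77 for PDZK1 (SE 1.11, adjusted P = 0.0127), the 1 member called where 3.96% of genes were called higher. It was 3.38 for LRP2 (SE 1.30, adjusted P = 0.0863). The CycW5 libraries of week 5 also served to choose members, which can favour higher values here, so nothing is read from that count. Without library 94 the PDZK1 value was 3.33 (adjusted P = 0.101), and with only the groups compared it was 4.78 but not called (adjusted P = 0.0571). Without the 5 libraries that stood apart LRP2 was called too, at 3.25 (adjusted P = 0.0284).

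At week 9 none of the 5 members was called between CycW5 and NoCycW5. The log2 difference was 0.12 for LRP2 (interval -1.11 to 1.36), -0.07 for PDZK1 (interval -1.09 to 0.95), 0.03 for EZR (interval -0.48 to 0.54), 0.40 for PLS1 (interval -0.11 to 0.90) and 0.02 for CDCP1 (interval -0.46 to 0.49). No gene was called by edgeR (0% of 16120), while 934 had an unadjusted P under 0.05 and DESeq2 called 14. A missing call does not show equal levels, and the intervals of LRP2 and PDZK1 were the widest of the 5.

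Markers of the epithelium also differed between the groups. Of 13 marker genes, 6 could be paired with an identifier (EPCAM, KRT8, CLDN3, CLDN4, CLDN7 and GRHL2), and none of the 6 was at 0. Identifiers came only through the study's tables of genes selected on these libraries, so markers that differed were more likely to be found and their differences are not independent evidence of a direction. Their summed level was 421 ± 90.2 CPM in NoCycW5 (SD, n = 12), 785 ± 249 CPM in CycNoP4 (SD, n = 4) and 922 ± 356 CPM in CycW5 (SD, n = 10) at week 5. At week 9 it was 1060 ± 346 CPM in NoCycW5 (SD, n = 11), 1013 ± 306 CPM in CycW5 (SD, n = 10) and 1032 ± 293 CPM in CycNoP4 (SD, n = 3). EPCAM, an epithelial adhesion protein, took the most reads of the 6. All 6 were called higher in CycW5 than in NoCycW5 at week 5, where 14.5% of all genes were, and nothing is read from that count. They were higher by log2 0.71 (EPCAM, SE 0.23) to 1.95 (CLDN7, a tight junction protein, SE 0.25).

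Set against these markers, the members split, although the way the markers were found can make their own difference too large. The mean log2 CPM of the 6 markers was 1.19 higher in CycW5 than in NoCycW5 at week 5. Above that difference LRP2 still differed by 4.67 log2 units and PDZK1 by 2.76. EZR, CDCP1 and PLS1 differed from the markers by 0.27, 0.20 and -0.12. Over the weeks in NoCycW5 the markers rose by 1.44, and the members differed from them by 5.07 for LRP2, 1.86 for PDZK1, 0.38 for CDCP1, 0.23 for EZR and -0.66 for PLS1. Between CycNoP4 and CycW5 at week 5 the markers differed by -0.35, and relative to them PDZK1 was at -3.05, LRP2 at -1.77, CDCP1 at -0.10, EZR at 0.04 and PLS1 at 0.89. Of the 6 markers, 2 were called lower in CycNoP4 and 0 higher. They were CLDN3 (log2 -1.09, adjusted P = 0.0456, edgeR) and CLDN7 (-1.10, adjusted P = 0.0275). These calls were lost in 9 and 4 of 14 fits that left out 1 library. In CycNoP4 the markers were 0.84 higher than in NoCycW5 at week 5. The members differed from that rise by 2.89 for LRP2, 0.77 for PLS1, 0.31 for EZR, 0.09 for CDCP1 and -0.29 for PDZK1, the CDCP1 difference being the nearest to that of the markers. Library 51 was the highest of CycNoP4 for EZR and CDCP1 and library 58 for PDZK1, and values without these libraries are not given here. The part of the epithelial content of a biopsy in these differences was not tested.

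Markers of stroma and endothelium were measured in part. PDGFRA, the 1 of 8 stromal markers with an identifier, had means of 465 ± 135 CPM in CycW5 (SD, n = 10) and 489 ± 109 CPM in NoCycW5 (SD, n = 12) at week 5. The endothelial markers VWF and CDH5, 2 of 6, summed to 231 ± 59.5 CPM in CycW5 (SD, n = 10) and 388 ± 106 CPM in NoCycW5 (SD, n = 12), and both were lower in CycW5, VWF at a log2 of -0.81 (SE 0.19). They too were found through those tables. Markers of glands, ciliated cells, smooth muscle, leukocytes and erythrocytes were not analysed here.

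**Figure D4:**
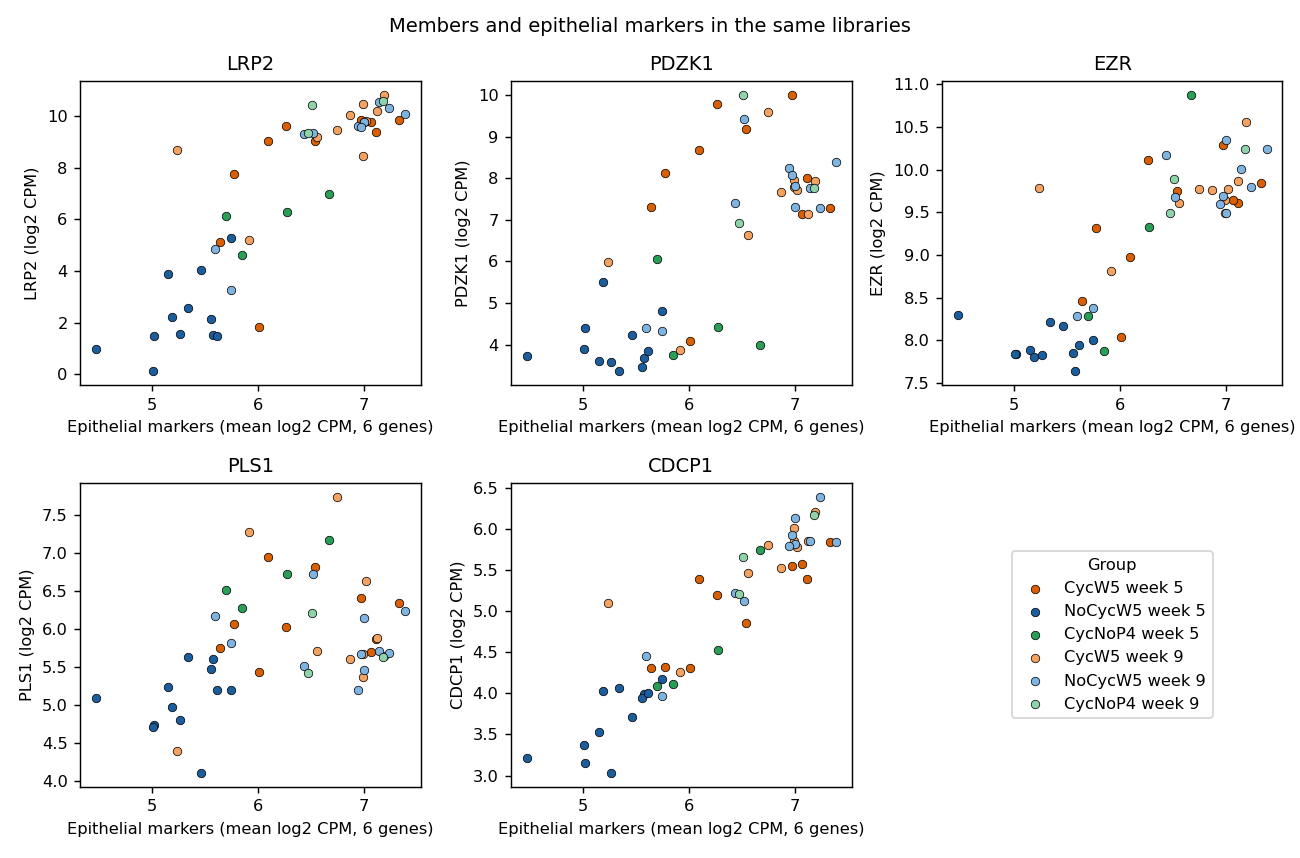
Log2 CPM of each of the 5 genes (y axis) against the mean log2 CPM of 6 epithelial markers (x axis) in the 50 libraries, coloured by group. Within NoCycW5 week 9 CDCP1 followed the markers most closely by Pearson's r (0.94 against 0.91 for LRP2) and LRP2 by Spearman's rho (0.95 against 0.80 for CDCP1). NoCycW5 week 5 libraries had the lowest group means of LRP2 and PDZK1 with some overlap, and PLS1 showed no common line.

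Within groups, where status and week are constant, the members varied together in part. Over 4 groups of 10 to 12 libraries, 100 relations were computed between members and with the epithelial markers, OXTR and ESR1 (an estrogen receptor), and 8 passed for both Pearson's r and Spearman's rho. In CycW5 at week 5 LRP2 varied with EZR (r = 0.90, rho = 0.88, permutation adjusted P = 0.0100 and 0.0239) and with CDCP1 (r = 0.80, rho = 0.92, adjusted P = 0.00420 and 0.0127). Without libraries 52 and 57, which were farthest from the median, r was 0.62 and 0.91. In the same group CDCP1 varied with the epithelial markers (r = 0.86, rho = 0.90, adjusted P = 0.0228 and 0.0158), with r = 0.77 without 2 libraries.

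In NoCycW5 at week 9 LRP2 varied with the epithelial markers (r = 0.91, rho = 0.95, permutation adjusted P = 0.00514 and 0.00900) and CDCP1 did so too (r = 0.94, rho = 0.80, adjusted P = 0.00420 and 0.0453). Both varied inversely with OXTR, LRP2 with r = -0.80 and rho = -0.91 (adjusted P = 0.001 and 0.00950) and CDCP1 with r = -0.94 and rho = -0.90 (adjusted P = 0.001 and 0.00967). Libraries 76 and 91 were the farthest from the median here, and without them the 4 values of r were 0.82, 0.82, -0.79 and -0.92 in the order given. In NoCycW5 at week 5 PLS1 varied with OXTR (r = 0.79, rho = 0.85, adjusted P = 0.0205 and 0.0158), and r was 0.73 without libraries 44 and 47. No relation of PDZK1 passed for both measures, and PLS1 passed with no other member.

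Genes that varied most like each member were ranked by Pearson's r over the 50 libraries after the mean of each group was subtracted, among genes with a symbol. These values share libraries and depth and are given as a description. For LRP2 they were FMO2, a flavin monooxygenase (r = 0.94), SLC27A6, a fatty acid transport protein (r = 0.89), and SDR16C5, a retinol dehydrogenase (r = 0.88). FMO2 had the highest r of all 16119 other genes and averaged 32.2 ± 31.8 CPM in CycW5 against 0.290 ± 0.434 CPM in NoCycW5 at week 5 (SD, n = 10 and 12). For PDZK1 they were OGDH, a subunit of the oxoglutarate dehydrogenase complex (r = 0.89), MRPS36, a mitochondrial protein (r = 0.88), and GM2A, the ganglioside activator protein (r = 0.87). In CycNoP4 at week 5 GM2A averaged 34.4 ± 8.32 CPM (SD, n = 4) against 29.5 ± 7.10 CPM in NoCycW5 (SD, n = 12) and 315 ± 176 CPM in CycW5 (SD, n = 10).

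For EZR the nearest genes were RNASE9, a member of the ribonuclease A family (r = 0.84), ERGIC1, a protein of the compartment between endoplasmic reticulum and Golgi (r = 0.83), and NXT2, a factor of mRNA export (r = 0.82). For CDCP1 they were NHSL1 (r = 0.90), KSR2, a kinase scaffold (r = 0.88), and RNF157, a ubiquitin ligase (r = 0.87). For PLS1 the values were lower, with DPY19L4 (r = 0.72), ITGA2, a collagen-binding integrin (r = 0.70), and B4GALT4, a galactosyltransferase (r = 0.70). Among the members themselves, PLS1 had r of 0.02 with LRP2, 0.18 with PDZK1, 0.05 with EZR and 0.06 with CDCP1, whereas LRP2 had 0.78 with CDCP1, 0.74 with EZR and 0.73 with PDZK1. Without the 5 libraries that stood apart the last 3 were 0.61, 0.52 and 0.22, so that the value for PDZK1 rested on those libraries, and the 15 genes named had r of 0.61 to 0.88. Ranking by Spearman's rho named 5 of the same 15 genes.

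Other genes of the brush border, of endocytosis and of the proteins that bind the members were taken from 6 lists of 100 genes. Symbols could be paired with identifiers only through the study's own tables of genes selected on these libraries. The 25 genes found were thus chosen partly for their differences, and their counts are not independent evidence of a direction. At week 5, 13 of the 25 rose and 1 fell in CycW5 over NoCycW5, where 14.5% and 11.1% of all genes were called, with a median log2 of 0.36 against -0.02 over all genes. In the CycNoP4 contrast with CycW5, 1 rose and 3 fell, where 9.62% and 8.29% of all genes were called. None was called between CycW5 and NoCycW5 at week 9.

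The microvillus list had 8 of 27 genes, with a median log2 of 1.46 in CycW5 over NoCycW5 at week 5. Of these, 7 rose, where 14.5% of all genes were called higher. They were found through the study's tables of selected genes, so nothing is read from that count. VIL1 (villin, which bundles and severs microvillar actin) averaged 16.0 ± 12.4 CPM in CycW5 and 0.680 ± 0.505 CPM in NoCycW5, a log2 of 4.54 (SE 0.71). ANKS4B, a scaffold of the links between microvillus tips, averaged 8.46 ± 6.48 CPM and 0.300 ± 0.200 CPM, a log2 of 4.79 (SE 0.68). PROM2, a protein of membrane protrusions, was higher by 2.21 (SE 0.50).

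VIL1 and ANKS4B were also the 2 genes of the microvillus list that fell in CycNoP4 against CycW5, by 3.02 (SE 1.04, adjusted P = 0.0367, edgeR) and 2.96 (SE 0.98, adjusted P = 0.0300) on the log2 scale. In CycNoP4 they averaged 1.98 ± 3.27 and 1.08 ± 1.24 CPM (SD, n = 4). Both calls were lost without library 56, 58 or 64, with adjusted P up to 0.120 and 0.105, and that of VIL1 also without CycW5 library 13, 66, 67 or 70. Against NoCycW5 only BAIAP2L1, a protein that bends membrane over actin, was called higher in CycNoP4 (log2 0.85, SE 0.29, adjusted P = 0.0370), a call lost without library 49, 51 or 56 (log2 0.52 without 51, adjusted P = 0.336). PODXL, an apical sialomucin, was the 1 microvillus gene not called between CycW5 and NoCycW5 at week 5 (log2 0.02, SE 0.15).

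**Figure D5:**
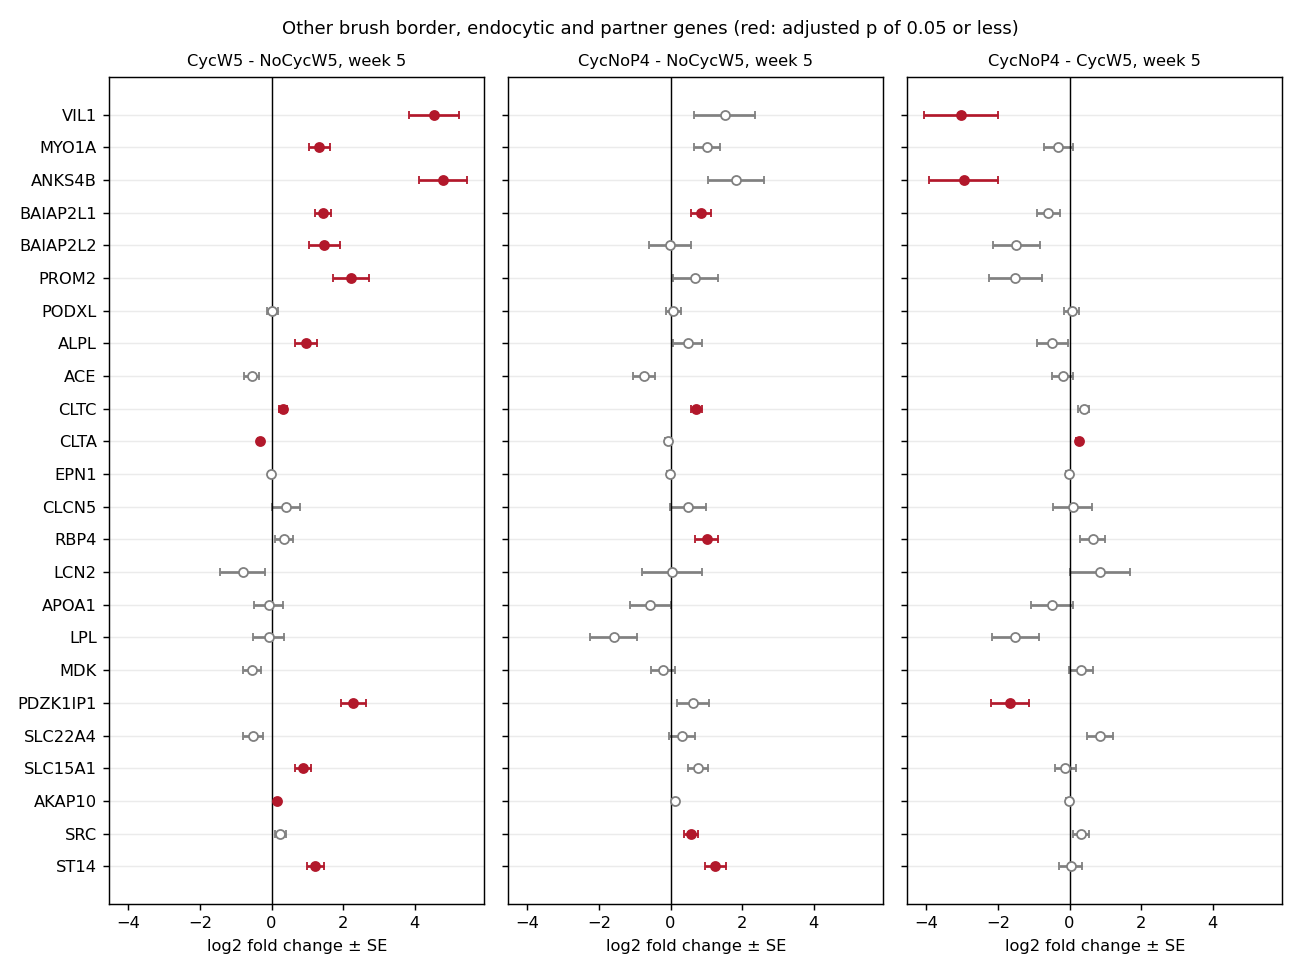
Log2 fold change with SE (x axis) of 24 other brush border, endocytic and partner genes (y axis) in 3 comparisons at week 5, with called genes in red. In CycW5 against NoCycW5 the 2 largest differences were ANKS4B (4.79) and VIL1 (4.54), and both lay below 0 in CycNoP4 against CycW5.

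Endocytic and ligand genes differed less than LRP2. Of the coreceptor, adaptor and coat list 4 of 25 genes were found. The clathrin heavy chain CLTC took the most reads, at 500 ± 83.9 CPM in CycW5 (SD, n = 10) and rose by a log2 of 0.32 (SE 0.12) over NoCycW5 at week 5, whereas the light chain CLTA fell by 0.32 (SE 0.06). CLTC was also higher in CycNoP4 than in NoCycW5 (log2 0.71, SE 0.16, adjusted P = 0.00270, edgeR), but not without library 51 (log2 0.60, adjusted P = 0.0628). Of the megalin ligands 5 of 14 were found, and none was called between CycW5 and NoCycW5 at week 5. Over the weeks in NoCycW5, RBP4 (log2 0.91, SE 0.25) and APOA1 (1.06, SE 0.40) rose, and LPL (-1.50, SE 0.44) and MDK (-0.81, SE 0.24) fell, where 34.4% of all genes were called. RBP4, the retinol carrier, was higher in CycNoP4 than in NoCycW5 (log2 1.01, SE 0.32, adjusted P = 0.0288), a call lost without library 51 or 56 (log2 0.73 without 51, adjusted P = 0.237). MDK (midkine), the ligand with the most reads in NoCycW5 at week 5, differed by -0.22 (SE 0.34).

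Of the PDZK1 partner list 4 of 12 genes were found. In CycW5 over NoCycW5 at week 5, 3 of them rose, where 14.5% of all genes were called higher. Those 3 were in the study's tables of the contrasts that chose the members, so nothing is read from that count. PDZK1IP1, a small membrane protein that binds PDZK1, rose by 2.28 (SE 0.35), the peptide transporter SLC15A1 by 0.88 (SE 0.22) and AKAP10, an anchor of protein kinase A, by 0.15 (SE 0.05). PDZK1IP1 fell in CycNoP4 against CycW5 by 1.67 on the log2 scale (SE 0.52, adjusted P = 0.0225, edgeR) and rose in CycNoP4 from week 5 to week 9 by 1.92 (SE 0.61, adjusted P = 0.0246). The first call was lost without library 51, 56 or 58 (adjusted P up to 0.0982) and the second without library 51, 58 or 94 (log2 0.80 without 94, adjusted P = 0.415). AKAP10 took the most reads of the list, at 65.0 ± 6.0 CPM in CycW5 at week 5 (SD, n = 10).

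The CDCP1 list of kinases and proteases had 2 of 9 genes. ST14 (matriptase), a protease that cleaves CDCP1, rose by 1.22 (SE 0.24) in CycW5 over NoCycW5 at week 5 and by 1.25 (SE 0.30, adjusted P = 0.00491, edgeR) in CycNoP4, the latter falling to 0.88 (adjusted P = 0.132) without library 51. The kinase SRC was higher in CycNoP4 than in NoCycW5 by 0.57 (SE 0.20, adjusted P = 0.0463), a call lost in 8 of 16 fits that left out 1 library, at 0.22 without library 51 (adjusted P = 0.551). Of the brush border enzymes 2 of 13 were found, and ALPL, an alkaline phosphatase, averaged 395 ± 185 CPM in CycW5 and 203 ± 93.8 CPM in NoCycW5 at week 5 (SD, n = 10 and 12), a log2 of 0.96 (SE 0.31). ACE, a dipeptidase, was at -0.55 (SE 0.21) and was not called.

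OXTR and ESR1, receptors that P4 is known to restrain in the endometrium, gave the hormonal context. OXTR averaged 204 ± 71.3 CPM in CycNoP4 (SD, n = 4), 123 ± 41.7 CPM in NoCycW5 (SD, n = 12) and 45.2 ± 40.1 CPM in CycW5 (SD, n = 10) at week 5, and 5.00 ± 4.44 CPM in CycNoP4 at week 9 (SD, n = 3). At week 9 it had a median of 6.72 CPM in CycW5 (2.64 to 178 CPM) and of 9.10 CPM in NoCycW5 (2.84 to 162 CPM), and 2 of 10 and 3 of 11 libraries were within the NoCycW5 range of week 5. ESR1 averaged 160 ± 57.2 CPM in CycNoP4, 127 ± 55.1 CPM in NoCycW5 and 104 ± 30.9 CPM in CycW5 at week 5 (SD, n = 4, 12 and 10). Neither receptor was called between CycW5 and NoCycW5 at week 5 (log2 -1.44, SE 0.67 for OXTR and -0.29, SE 0.23 for ESR1). Between CycNoP4 and either of these groups at week 5 neither was called. Over the weeks in CycNoP4 OXTR fell by 5.36 on the log2 scale (SE 1.46, adjusted P = 0.0112, edgeR) and ESR1 by 1.16 (SE 0.42, adjusted P = 0.0435). The OXTR call was lost without library 79 or 94 (adjusted P up to 0.0601) and the ESR1 call in 5 of 7 fits that left out 1 library (adjusted P up to 0.142).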

How the data were processed

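The authors sequenced poly(A) RNA of endometrial biopsies as stranded 75-bp single-end reads, trimmed them with cutadapt and fqtrim, aligned them to UMD3.1 with HISAT2 and counted reads per Ensembl gene with featureCounts. The deposited values are these raw counts, and versions and the strand setting of counting are not given in the sources used here. Libraries were grouped by labelled status and week. Counts were filtered (filterByExpr), scaled by TMM and fitted with edgeR 4.0.16 (R 4.3.3) as 6 group means over 50 libraries, with robust quasi-likelihood tests and Benjamini-Hochberg adjustment over 16120 genes. DESeq2 1.42.0 and limma 3.58.1 (voom, with and without library weights) were alternatives, with other filters, only the groups compared, and each library left out in turn. Log2 CPM used a prior count of 2. Correlations used 100000 permutations (scipy 1.17.1). Scripts were tested on simulated data.

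The members and gene lists were chosen with earlier results of these data known. Symbols came only from the study's tables, which pair 2324 identifiers with one. The genes named were the 5 members, OXTR and ESR1. In each list they were the gene of most reads and up to 3 called genes with the largest difference between CycW5 and NoCycW5 at week 5, and for each member the 3 genes most like it. Values of 1 microvillus gene are not reported here. PODXL, BAIAP2L1, RBP4, APOA1, LPL, SRC and ACE were added after their values were seen. The labels do not name cows, and P-values measure the spread between these libraries.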

Additional observations from a re-analysis of the deposited data

Results flagged for a closer look

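Among 15 sets of 4 to 10 libraries checked on the log2 scale, each being 1 member in 1 group, 2 held a library far from the rest, where chance gives about 1 in 20. The sets share libraries, so they are not independent. Groups of 3, 11 and 12 libraries were not checked. Among them was NoCycW5 at week 9, with low LRP2 in libraries 91 (9.58 CPM) and 76 (28.6 CPM). LRP2 was 37 CPM in library 87 of CycW5 at week 9, against 352 to 1823 CPM in the other 9 libraries. PDZK1 was 16.9 CPM in library 57 of CycW5 at week 5, against 141 to 1019 CPM in the other 9. Both libraries also stood apart from their groups on the first principal component computed without the members.

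The change of PDZK1 from week 5 to week 9 in CycNoP4 exceeded that in CycW5 by 4.77 on the log2 scale (SE 1.11, adjusted P = 0.0127, edgeR). It was 3.33 (adjusted P = 0.101) without library 94 of CycNoP4 at week 9. With only the groups compared it was 4.78 but not called (adjusted P = 0.0571). The CycW5 libraries of week 5 also served to choose members, which can favour a higher value here. The P-values do not allow for that choice.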

How the results depend on the processing

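Of 240 tested member values under 8 alternatives other than leaving out 1 library, 218 kept their direction and their side of the threshold. All 120 values described without a test kept their direction, and 118 moved by less than the spread between libraries. Direction turned in 9 tested values, each one that was not called: PLS1 over the weeks in CycW5 was -0.14 with limma-voom, -0.41 with library weights and -0.013 without the 5 libraries that stood apart, an alternative chosen after seeing the data. EZR in CycNoP4 against CycW5 was -0.31, -0.50 and -0.022 under the same 3. At week 9 EZR was -0.043 and CDCP1 -0.028 with library weights, and EZR -0.065 without the 5 libraries. The cause was not tested.

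Members called fell from 2 to 1 in CycNoP4 against CycW5 with limma-voom, with library weights and with only the groups compared, LRP2 being the call lost, and against NoCycW5 from 4 to 2 with limma-voom (LRP2 and CDCP1 lost) and to 3 with library weights (CDCP1 lost). Over the weeks in CycNoP4 they rose from 2 to 4 with library weights, and in CycW5 from 0 to 1 (CDCP1). For the change in CycNoP4 minus that in CycW5 they were 2 with DESeq2 and without the 5 libraries and 0 with only the groups compared.

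Genes called for the change in NoCycW5 minus that in CycW5 (1234) were 1855 with DESeq2, 578 with limma-voom, 3115 with library weights and 2238 without the 5 libraries. For the change in CycNoP4 minus that in CycW5 (1302) they were 2155 with DESeq2, 746 with limma-voom and 91 with only the groups compared. Over the weeks in CycW5 (20) they were 252 with DESeq2, 0 with limma-voom, 3013 with library weights, 8 without the filter, 0 with only the groups compared and 43 without the 5 libraries. Between CycW5 and NoCycW5 at week 9 (0) they were 14 with DESeq2 and 1 with library weights. With library weights NoCycW5 over the weeks (5551) gave 8765 and CycNoP4 over the weeks (3158) gave 4952. With only the groups compared CycNoP4 gave 904 against NoCycW5 (2650), 1771 against CycW5 (2887) and 1231 over the weeks.

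With 1 library left out in turn, genes called ranged from 153 (without library 51) to 4775 (without library 64) in CycNoP4 against NoCycW5, 1111 to 4342 against CycW5, 1295 to 4525 over the weeks in CycNoP4, 0 to 406 over the weeks in CycW5, 0 to 5 at week 9, 777 to 2171 for the change in NoCycW5 minus that in CycW5 and 0 (without library 94) to 3013 (without library 64) for the change in CycNoP4 minus that in CycW5. Members called ranged from 1 to 4 in CycNoP4 against NoCycW5, 1 to 2 against CycW5, 1 to 4 over the weeks in CycNoP4 and 0 to 1 for its change minus that in CycW5. Values that crossed 0 were EZR in CycNoP4 against CycW5 (-0.91 to 0.34) and in the change minus that in CycW5 (-0.19 to 1.06), PDZK1 in CycNoP4 against NoCycW5 (-0.068 to 0.97) and PLS1 over the weeks in CycW5 (-0.21 to 0.21). At week 9 LRP2 (-0.063 to 0.28), PDZK1 (-0.54 to 0.24), EZR (-0.079 to 0.11) and CDCP1 (-0.078 to 0.13) did so too.

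Correlations passing numbered 9 with a prior count of 0.5, against 8. No paired analysis was possible because the labels do not link libraries of 1 cow at both weeks, and the order of columns in the count table was not taken as a link. LRP2 had as few as 25 reads in a library, so its low values carry the most counting error, and the 4 and 3 CycNoP4 libraries limited every comparison that holds them.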
